A study of Mus musculus with 15 samples.

Results

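Lowering MLX by a short hairpin RNA was set directly against blocking it with a dominant-negative form, in C2C12 cells, a mouse line of skeletal muscle precursors. The members were the 3 libraries labelled MLX shRNA and the 3 labelled MLX DN, chosen by their labels alone, 6 of the 15 libraries of the series. The MLX shRNA cells carried a lentivirus with a hairpin against Mlx, and the MLX-DN cells carried a lentivirus with a dominant-negative MLX. The hairpin had its own control, a lentivirus with a non-targeting shRNA (NT shRNA control, 3 libraries). MLX-DN was set against a vector that expresses only GFP (GFP control, 3 libraries). All 12 cultures were therefore transduced, and the labels give neither a clone, a dose, a time after transduction nor a state of differentiation. Messenger RNA was read after poly(A) selection, and the deposited table lists 23352 genes. The 11945 genes that reached 1 FPKM in 3 or more of the 15 libraries were tested. FPKM is the number of sequenced fragments scaled by transcript length and by library size, taken here from deposited log2(FPKM + 2) values. Read as 1 plus log2(FPKM + 1), the same values would give every FPKM smaller by a factor of 2 and leave the log2 differences as they are.

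MLX belongs to the helix-loop-helix transcription factors with a leucine zipper. It binds DNA only as a dimer. Its partners are the glucose-sensing proteins MondoA (gene Mlxip) and ChREBP (gene Mlxipl), the repressor MNT and some, not all, repressors of the MAD family. MondoA, the main glucose-sensing partner in skeletal muscle, moves into the nucleus when hexose phosphates build up and, with MLX, switches on genes such as Txnip and Arrdc4 through paired E boxes called carbohydrate response elements. A hairpin removes the MLX message and so the protein, whereas a dominant-negative form can hold the partners in dimers that do not work, so the pair of perturbations reach the same pathway by different means. Related repressors can dimerise with MAX instead of MLX, and the network touches that of MYC.

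The 6 libraries held an estimated 36.9 to 52.0 M reads each in the MLX shRNA group and 46.9 to 65.4 M in the MLX-DN group, read from the steps between low values. Over the tested genes, MLX shRNA and MLX-DN libraries correlated at r = 0.980 to 0.983, MLX-DN and NT shRNA control libraries at 0.986 to 0.989, and MLX-DN and GFP control libraries at 0.961 to 0.965. MLX-DN was thus nearer to the control of the other construct than to its own, so the control levels are given beside many of the direct differences below. Nothing in the labels says that the 3 libraries of a group were grown as separate cultures, so a p-value here reflects library-to-library spread that may be only technical. Of 11 skeletal myoblast markers, 10 were tested, 7 higher and 2 lower in MLX shRNA than in MLX-DN (44.1% and 27.1% of all tested genes). Summed, the markers reached 8127 to 8971 FPKM in MLX shRNA libraries and 7463 to 7586 FPKM in MLX-DN libraries. The same markers summed to 5881 to 6049 FPKM in NT shRNA control libraries and 8254 to 8427 FPKM in GFP control libraries. Among them, the myogenic factor gene Myod1 had 72.4, 76.3 and 74.6 FPKM in MLX shRNA libraries and 66.4, 68.6 and 58.5 FPKM in MLX-DN libraries, and the cadherin gene Cdh15 173, 189.8 and 181 FPKM and 134, 137 and 130.2 FPKM, so the label was kept. The embryonic myosin heavy chain gene Myh3, a marker of differentiation, stood beside them at 955, 1022 and 985 FPKM in the MLX shRNA libraries and 540.1, 533 and 539 FPKM in the MLX-DN libraries. In such bulk samples, fewer cells of a kind and less RNA per cell cannot be told apart.

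Mlx itself was the widest difference between the groups. Its level was 2.88, 3.95 and 2.80 FPKM in the MLX shRNA libraries and 384, 399.9 and 398 FPKM in the MLX-DN libraries, against 16.3, 17.1 and 17.9 FPKM in the NT shRNA control libraries and 16.6, 17.6 and 17.1 FPKM in the GFP control libraries. All knockdown libraries lay below both controls and all MLX-DN libraries above them, as the labels require. The log2 difference between MLX shRNA and MLX-DN was -6.25 (SE 0.0596, limma adjusted p = 4.97e-19), and -1.88 and 4.37 for MLX shRNA and MLX-DN against their own controls. All log2 differences are given on the log2(FPKM + 2) scale, so those of weakly expressed genes come out smaller than the change in FPKM. Reads of the construct may be part of the MLX-DN level, the RNA does not show how much protein remained or was blocked, and 19.3% of the exon bases of Mlx lie opposite Psmc3ip.

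**Figure D1:**
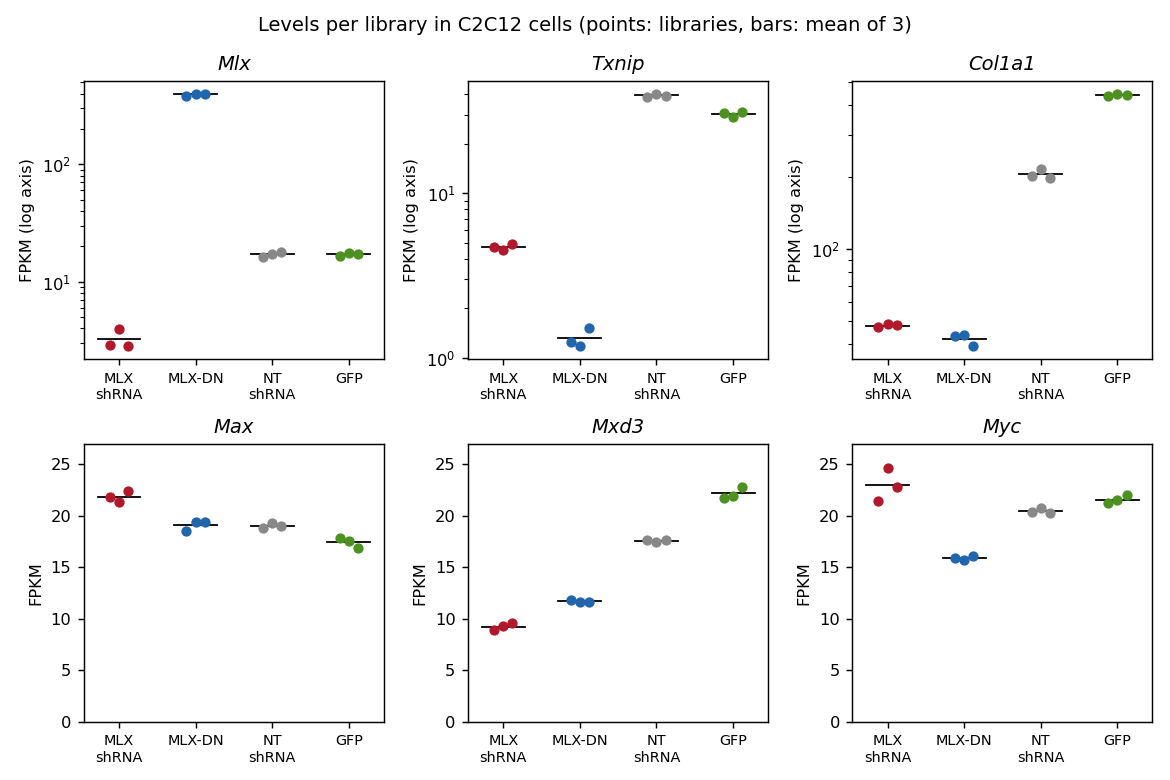
FPKM of Mlx, Txnip, Col1a1, Max, Mxd3 and Myc in each library (points) with the group mean (bar), for MLX shRNA, MLX-DN, NT shRNA control and GFP control, 3 libraries each; the upper row has log axes. Mlx is below both controls with the hairpin and above both with MLX-DN, while Txnip and Col1a1 are below both controls in both perturbed groups.

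Of the 13 genes of the MLX network, 11 passed the filter on low values, 5 were higher in MLX shRNA than in MLX-DN, 3 were lower, and 3 did not pass the test. Among all tested genes 44.1% were higher and 27.1% lower, and 71.2% were called in all. Mlxip, the gene of MondoA, had 4.23, 3.62 and 3.63 FPKM in MLX shRNA libraries and 4.04, 4.18 and 3.57 FPKM in MLX-DN libraries, and these values overlapped (-0.02 log2, adjusted p = 0.694 by limma). Mlxipl, the gene of ChREBP, was at or below 0.0074 FPKM in all 6 libraries and was not tested. The DNA-binding partners on the MYC side were called. Myc, the growth regulator, averaged 22.95 ± 1.60 FPKM in MLX shRNA and 15.9 ± 0.217 FPKM in MLX-DN (SD, n = 3), with controls at 20.5 (NT shRNA) and 21.6 FPKM (GFP). The log2 difference was 0.48, with 0.15 for MLX shRNA and -0.40 for MLX-DN against their own controls. Max, the shared partner of MYC and the MAD proteins, had 21.8, 21.3 and 22.4 FPKM in MLX shRNA libraries and 18.5, 19.4 and 19.4 FPKM in MLX-DN libraries, which did not overlap (0.18 log2).

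The repressor genes Mxd3, Mxd4, Mnt and Mxd1 were lowered by both constructs. Mxd3, a MAD family gene expressed in dividing cells, had 8.89, 9.27 and 9.58 FPKM in MLX shRNA libraries and 11.8, 11.6 and 11.7 FPKM in MLX-DN libraries, against control means of 17.6 (NT shRNA) and 22.2 FPKM (GFP). The effects against own controls were -0.80 and -0.82 log2 for MLX shRNA and MLX-DN, and their difference, 0.02, did not pass the test (adjusted p = 0.742 by limma). Mxd4 likewise fell by 0.35 with MLX shRNA and by 0.37 with MLX-DN, and Mnt, which is known to bind MLX, fell by 0.22 and by 0.42. Mxd1 fell by 0.29 with the hairpin and by 0.31 with MLX-DN. Mga, a large MAX partner, was not lowered by both, at -0.08 with MLX shRNA and 0.32 with MLX-DN against their own controls. Its direct difference was -0.23. Mxi1, a further repressor, was not lowered by both either, at -0.13 with MLX shRNA and 0.12 with MLX-DN. Mycl1, a MYC relative, had 16.5, 16.99 and 17.3 FPKM in MLX shRNA libraries and 14.7, 15.6 and 14.5 FPKM in MLX-DN libraries, close to the NT shRNA control mean of 15.7 FPKM, and the GFP control stood apart at 5.17 FPKM.

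Txnip, which encodes an inhibitor of thioredoxin and of glucose uptake, is the best known target of MondoA and MLX, and the 250 bases before the RefSeq start site (GRCm38.p6) of Txnip and of its arrestin relative Arrdc4 are printed because both messages were low with either construct. Capitals mark the carbohydrate response element motif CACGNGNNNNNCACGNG in the promoter of Txnip (chr3:96557707-96557956, plus strand), and the E box CACGTG in that of Arrdc4 (chr7:68749239-68749488, minus strand).
Txnip: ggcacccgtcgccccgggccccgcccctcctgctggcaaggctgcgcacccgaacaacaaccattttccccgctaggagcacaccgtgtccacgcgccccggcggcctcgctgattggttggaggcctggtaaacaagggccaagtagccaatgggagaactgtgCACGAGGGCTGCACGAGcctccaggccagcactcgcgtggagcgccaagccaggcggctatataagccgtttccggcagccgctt
Arrdc4: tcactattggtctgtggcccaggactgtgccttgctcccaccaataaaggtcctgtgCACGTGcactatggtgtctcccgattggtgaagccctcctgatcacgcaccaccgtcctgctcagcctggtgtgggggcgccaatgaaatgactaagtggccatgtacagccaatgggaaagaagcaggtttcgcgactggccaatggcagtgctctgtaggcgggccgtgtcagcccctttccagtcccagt
The Txnip motif reads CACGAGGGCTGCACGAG and begins 85 bases upstream of the start. Searched on both strands, the 17-base motif was found in 16 of 32851 promoter windows of 300 bases (0.0487%), and CACGTG in 2349 (7.15%), with overlaps between the 2 motifs not removed. A match is letters only and is not a measured site. The 16 windows belong to 15 genes, of which 10 were tested. The 9 other than Txnip differed by -0.15 to 0.36 between MLX shRNA and MLX-DN, by -0.20 to 0.36 with MLX shRNA against its control, and by -0.43 to 0.32 with MLX-DN against its control, on the log2 scale, all smaller than the differences of Txnip.

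Both constructs lowered Txnip, and MLX-DN lowered it further. The level was 4.69, 4.54 and 4.93 FPKM in MLX shRNA libraries and 1.25, 1.17 and 1.51 FPKM in MLX-DN libraries, against 38.6, 40.2 and 39.1 FPKM in NT shRNA control libraries and 30.5, 29.1 and 31.01 FPKM in GFP control libraries. The 4 groups did not overlap. The log2 effects were -2.62 for MLX shRNA (SE 0.0386, adjusted p = 3.79e-17 by limma) and -3.28 for MLX-DN (SE 0.0386, adjusted p = 3.22e-18). The direct difference was 1.02 (adjusted p = 3.60e-12), with mean FPKM 3.60 times as high in MLX shRNA as in MLX-DN, and the difference of the 2 effects was 0.66. Of its exon bases, 19.4% lie opposite the predicted gene Gm15441, and the sources used here do not give whether strand was used in counting. Arrdc4 was below the filter and had 0.0271, 0 and 0 FPKM in MLX shRNA libraries and 0.00390, 0.00490 and 0 FPKM in MLX-DN libraries. The NT shRNA control libraries had 0.2001, 0.0929 and 0.0866 FPKM and the GFP control libraries 0.405, 0.354 and 0.338 FPKM. All 6 perturbed libraries were below all 6 controls, but at 0.0182 to 0.0406 FPKM for 3 reads on a transcript of 2000 bases, the perturbed values are those of a few reads or none, and no test or fold is given.

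The other glucose-responsive genes did not follow Txnip in size. Of the 25 listed targets of MondoA and ChREBP, most of them described in liver, 22 were tested, and 7 were higher and 13 lower in MLX shRNA than in MLX-DN, with a median log2 difference of -0.16 beside 0.06 for all tested genes. Against their own controls, 7 rose and 10 fell with MLX shRNA (30.8% and 39.3% of all tested genes did), and 9 rose and 12 fell with MLX-DN (32.6% and 48.8%). Fgf21, a hormone of the fasting and stress response, had 26.1, 29.1 and 28.6 FPKM in MLX shRNA libraries and 32.2, 30.5 and 31.9 FPKM in MLX-DN libraries. Its means were 44.4 FPKM in the NT shRNA control and 5.97 FPKM in the GFP control, so it was lower than its own control with the hairpin (-0.63 log2) and higher than its own with MLX-DN (2.08). The lipogenic targets went both ways between the groups. Fasn (fatty acid synthase) and Acly (ATP citrate lyase) were higher in MLX shRNA, with 39.6, 40.3 and 40.9 FPKM of Acly against 30.4, 29.8 and 29.7 FPKM in MLX-DN libraries, and differences of 0.32 and 0.40. Scd1, a fatty acid desaturase, was lower in MLX shRNA, at 62.2, 61.2 and 59.6 FPKM against 102, 100.1 and 101 FPKM in MLX-DN libraries (-0.71 log2). G6pdx, the entry enzyme of the pentose phosphate pathway, was at 14.1 FPKM in MLX shRNA and 19.4 FPKM in MLX-DN, and below its own control in both (-0.64 and -0.70 log2). Klf10, a repressor induced by glucose, fell by 0.79 with MLX shRNA and by 0.19 with MLX-DN.

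Across the 11945 tested genes, 5263 were higher and 3243 lower in MLX shRNA than in MLX-DN (4462 and 3893 with median centring of each library, 4613 and 3726 with quantile normalization), 71.2% in all, and in 71.8% the 2 groups of 3 did not overlap. A call is therefore the usual case, and most calls were of small differences on the log2(FPKM + 2) scale. The median absolute difference was 0.17 on the log2 scale with a median SE of 0.036. On that scale 166 genes (1.39%) were both called and at least 2-fold apart, 50 higher and 116 lower. Here and below the 2-fold limit applies to FPKM + 2, so weakly expressed genes can differ by more than 2-fold in FPKM without reaching it. Of the 8506 calls, 5958 were also called in the same direction in the difference of the 2 effects, in which each group is first set against its own control and 8937 genes (74.8%) were called.

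The 12 largest rises in MLX shRNA over MLX-DN began with Xirp2, Gap43 and Gbp8. Xirp2, an actin-binding protein of the muscle membrane and Z disc, had 8.14, 7.06 and 7.19 FPKM in MLX shRNA libraries and 0.214, 0.227 and 0.221 FPKM in MLX-DN libraries, with both control means at or below 0.194 FPKM (2.09 log2, adjusted p = 4.00e-16 by limma). Every MLX shRNA library was above every library of the other 3 groups. Gap43, a growth cone protein, had 9.87, 10.4 and 9.73 FPKM in MLX shRNA libraries against 1.12, 1.20 and 1.01 FPKM in MLX-DN libraries, and Nefl, a neurofilament subunit, 4.13, 3.92 and 3.64 FPKM against 0.0682, 0.0382 and 0.0528 FPKM. For Nefl the MLX-DN libraries were at a few reads, and the gene lies partly opposite Nefm. Msc, a repressor of myogenic helix-loop-helix factors also called MyoR, had 7.09, 8.10 and 7.54 FPKM in MLX shRNA libraries and 1.03, 0.958 and 0.752 FPKM in MLX-DN libraries (1.72 log2), and 1.22 (NT shRNA) and 0.228 FPKM (GFP) in the controls. Igfbp2, an IGF-binding protein, averaged 309 ± 15.99 FPKM in MLX shRNA and 102 ± 6.32 FPKM in MLX-DN (SD, n = 3), beside 156 FPKM (NT shRNA) and 20.3 FPKM (GFP) in the controls. Its difference of effects was -1.24, the reverse of the direct difference (1.59). Postn, the matrix protein periostin, had 250.4, 244 and 251 FPKM in MLX shRNA libraries and 82.6, 84.1 and 85.8 FPKM in MLX-DN libraries. Against own controls, across the alternative settings, Postn rose less with MLX shRNA (0.56 to 0.66 log2) than with MLX-DN (0.74 to 0.84). The anoctamin gene Ano5, mutated in a limb-girdle muscular dystrophy in humans, had 7.55, 7.01 and 7.10 FPKM in MLX shRNA libraries against 1.03, 1.05 and 1.07 FPKM in MLX-DN libraries. Gas2, Stk32b, Gstt1, Akap12 and the guanylate-binding protein gene Gbp8 made up the rest, with log2 differences of 1.68, 1.68, 1.50, 1.48 and 1.72. Gbp8 has near-identical neighbours, so its reads may be shared with them.

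Of the 12 largest falls 11 are reported, with Mlx and Cilp the widest. Cilp, a cartilage matrix protein that binds TGF-beta, had 0.376, 0.207 and 0.258 FPKM in MLX shRNA libraries and 27.9, 28.2 and 28.1 FPKM in MLX-DN libraries (-3.72 log2, adjusted p = 6.99e-20 by limma). The control means were 51.8 FPKM with NT shRNA and 6.08 FPKM with GFP, so MLX shRNA was below all other groups and MLX-DN lay between the controls. Sod3, the extracellular superoxide dismutase, had 0.687, 0.593 and 0.533 FPKM in MLX shRNA libraries and 15.5, 16.3 and 14.6 FPKM in MLX-DN libraries. It was also lowest in MLX shRNA, but there MLX-DN and the NT shRNA control overlapped. Nrep, a small neuronal and regenerating-tissue protein, and Mfap5, a microfibril protein, differed by -2.29 and -2.22. Fxyd6, a regulator of the sodium pump, and Ltbp2, a matrix protein, differed by -2.16 and -2.07.

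Myl2, Pvalb and Myl9, also among these falls, had other orders of the groups. Myl2, the slow and cardiac regulatory light chain, had 26.2, 28.6 and 25.2 FPKM in MLX shRNA libraries and 179, 189 and 178 FPKM in MLX-DN libraries, against 25.7 FPKM with NT shRNA and 2.95 FPKM with GFP. MLX shRNA did not differ from its own control beyond the spread (0.05 log2, adjusted p = 0.336 by limma), and MLX-DN was 5.21 above its own. Pvalb, the calcium-binding protein parvalbumin, had 5.88, 6.64 and 6.90 FPKM in MLX shRNA libraries and 34.3, 34.4 and 32.9 FPKM in MLX-DN libraries, and MLX-DN was again the highest of the 4 groups. Myl9, the regulatory light chain of smooth muscle and non-muscle cells, had 14.9, 15.6 and 16.2 FPKM in MLX shRNA libraries and 97.2, 97.2 and 93.9 FPKM in MLX-DN libraries, with MLX-DN between the controls at 80.5 FPKM (NT shRNA) and 232 FPKM (GFP).

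**Figure D2:**
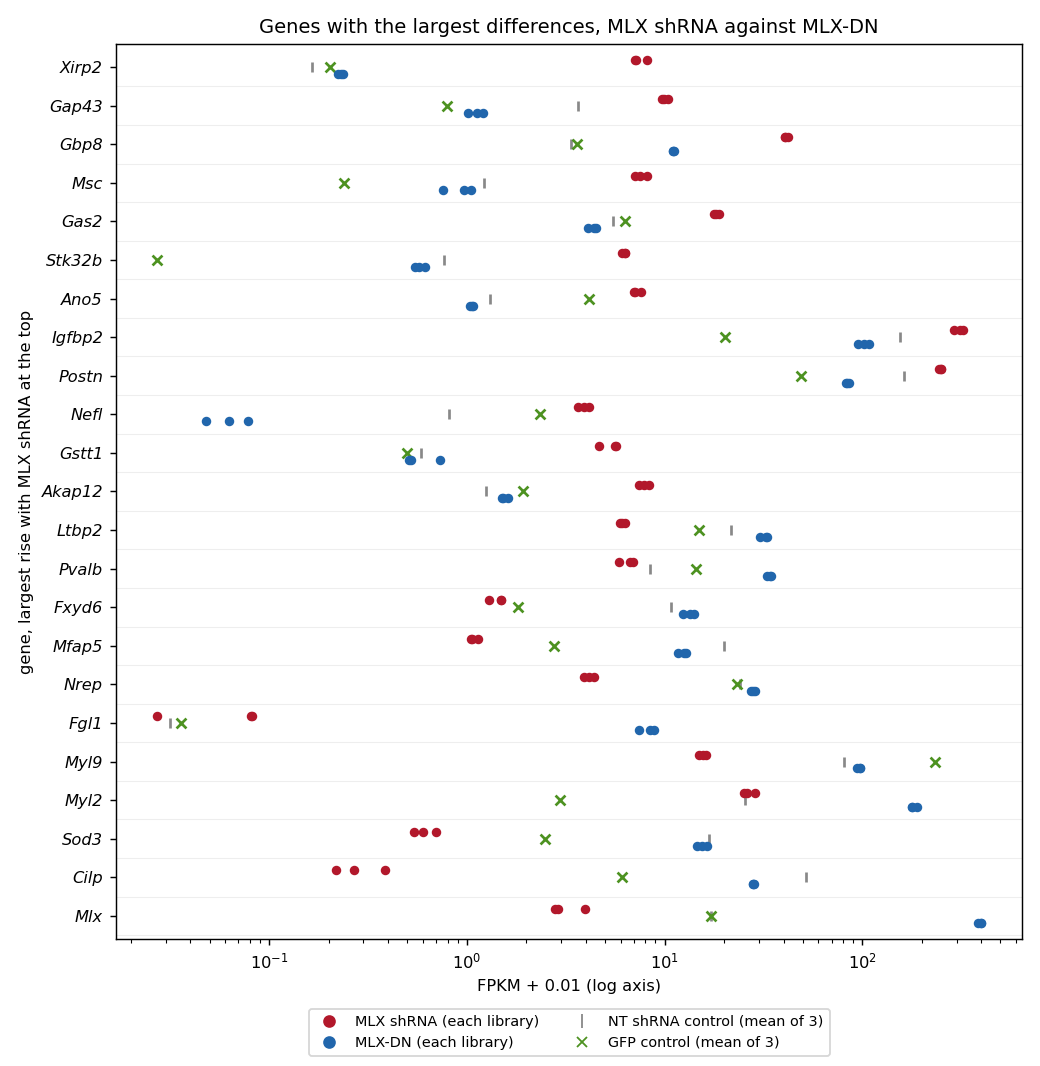
FPKM plus 0.01 on a log axis of the 12 genes with the largest rises and 11 of the 12 with the largest falls in MLX shRNA against MLX-DN, 1 point per library, by group. Every row separates MLX shRNA from MLX-DN, while the controls fall in different places from row to row.

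A few genes were near 0 in one perturbed group only. Under a rule chosen after the values were seen, every library of one group below 0.2 FPKM and every library of the other at or above 1, 16 genes were expressed with MLX-DN alone and 3 with MLX shRNA alone. In 3 of the 16 (Cxcl14, Fgl1 and Ptprc) both control means were also below 0.2 FPKM, and in none of the 3. Fgl1, a secreted protein of the fibrinogen family made mainly by liver, had 0.0709, 0.0721 and 0.0171 FPKM in MLX shRNA libraries and 8.47, 7.45 and 8.87 FPKM in MLX-DN libraries, against 0.0216 and 0.0257 FPKM in the NT shRNA and GFP controls. Ptprc, the gene of the leukocyte antigen CD45, was listed at 0 in all MLX shRNA libraries, had 4.39, 4.52 and 4.74 FPKM in MLX-DN libraries, and was listed at 0 or near it in the controls. Of the 4 groups, MLX-DN alone was above 1 FPKM for both. The other macrophage markers did not accompany Ptprc, since Emr1 was listed at 0 in all 12 libraries, 7 of the 10 macrophage markers stayed below 1 FPKM in all of them, and Cd14 was lower in MLX-DN (2.16, 2.67 and 2.44 FPKM) than in MLX shRNA (4.05, 4.03 and 4.04 FPKM). Cxcl14, a chemokine, had 0.0290, 0 and 0 FPKM with MLX shRNA and 1.39, 1.42 and 1.44 FPKM with MLX-DN. Igf1, a growth factor of muscle, averaged 0.143 FPKM with MLX shRNA and 1.49 FPKM with MLX-DN, and 2.61 and 0.892 FPKM in the NT shRNA and GFP controls.

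Against its own control, MLX shRNA changed 8369 genes (70.1%), 3674 higher and 4695 lower, and 180 of them (1.51%) at least 2-fold. MLX-DN changed 9723 (81.4%), 3892 higher and 5831 lower, and 462 (3.87%) at least 2-fold. With each library centred on its median these splits turned to 4675 higher and 3716 lower for MLX shRNA and to 5017 and 4660 for MLX-DN. With quantile normalization they were 4383 and 3943 for MLX shRNA and 4917 and 4774 for MLX-DN. These comparisons share no library. In both, 4401 genes were called in the same direction (36.8%), 1640 higher (13.7%) and 2761 lower (23.1%), against 2447 and 1905 with median centring and 2252 and 2009 with quantile normalization. In opposite directions 2575 were called (21.6%), 1322 (11.1%) higher with MLX shRNA and lower with MLX-DN, and 1253 (10.5%) the other way. With each group set against the other control, the opposite calls split into 1530 and 632. The effects of the 2 constructs correlated at r = 0.23 across genes (Spearman 0.24), a description across genes, which are not independent replicates.

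Among the genes that both constructs raised, Bglap2 (osteocalcin 2, a bone matrix hormone) had the largest smaller effect. It had 59.3, 67.02 and 65.96 FPKM in MLX shRNA libraries and 57.04, 56.98 and 58.5 FPKM in MLX-DN libraries, against 9.66 (NT shRNA) and 4.60 FPKM (GFP), and its reads may be shared with the near-identical Bglap. The direct difference was small (0.15, adjusted p = 0.0196 by limma), and the call was lost with median centring, with quantile normalization, without MLX shRNA replicate 2 or 3, and without MLX-DN replicate 1 or 2. Cd24a, a surface glycoprotein, had 38.4, 34.3 and 37.1 FPKM in MLX shRNA libraries and 49.1, 49.05 and 50.1 FPKM in MLX-DN libraries, with control means of 9.62 and 9.82 FPKM. Both perturbed groups were far above both controls. Padi2 (a citrullinating enzyme), Cp (ceruloplasmin, a copper-binding ferroxidase), Gsta4 (a glutathione transferase) and Gbp8 rose with both as well, by 1.92, 1.46, 1.74 and 3.02 log2 with MLX shRNA and by 1.58, 2.18, 1.10 and 1.22 with MLX-DN. All 4 were higher in MLX shRNA than in MLX-DN, by 0.94, 1.17, 0.39 and 1.72.

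Beside Txnip, the genes that both lowered most were Col1a1, Smoc2, Cdh11, Ccl7 and Mgp. Col1a1, the main chain of type I collagen, had 46.9, 48.2 and 47.98 FPKM in MLX shRNA libraries and 43.1, 43.7 and 39.01 FPKM in MLX-DN libraries, against 203, 216 and 198 FPKM in NT shRNA control libraries and 438, 448 and 442 FPKM in GFP control libraries. The perturbed groups lay close together although their controls differed. Smoc2, a matricellular protein, Mgp (matrix Gla protein, an inhibitor of calcification), the cadherin gene Cdh11 and the chemokine gene Ccl7 were lower in MLX shRNA than in MLX-DN, at -1.24, -1.41, -1.42 and -1.22 log2. Mgp, for instance, had 32.02, 34.8 and 31.4 FPKM in MLX shRNA libraries and 89.05, 96.4 and 85.5 FPKM in MLX-DN libraries, with 129.7 FPKM in the NT shRNA control and 262 FPKM in the GFP control. Across the alternative settings, effects against own controls were -2.68 to -1.93 (MLX shRNA) and -2.35 to -2.02 (MLX-DN) for Smoc2. In the same order they were -2.66 to -1.82 and -2.48 to -2.16 for Cdh11, and -3.60 to -1.67 and -2.06 to -1.55 for Ccl7. For these genes the ranges overlapped. For Mgp, at -1.98 to -1.87 and -1.57 to -1.43, they did not. Each range pools offsets, scalings and left-out libraries, so an overlap does not tell whether the effects of the constructs differ at a given setting.

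Other genes went opposite ways with the constructs. Tceal7, Tspan7, Pfn2, Ano5 and Nefl were higher than their own control with MLX shRNA and lower than theirs with MLX-DN. Tspan7, a tetraspanin, had 13.7, 13.5 and 13.3 FPKM in MLX shRNA libraries and 6.53, 6.82 and 6.44 FPKM in MLX-DN libraries, against 3.72 FPKM with NT shRNA and 25.8 FPKM with GFP, so both perturbed groups lay between the controls. Pfn2, a profilin, was more spread with MLX shRNA (4.54, 2.87 and 3.91 FPKM) than with MLX-DN (1.43, 1.45 and 1.36 FPKM). The reverse pattern held for Mlx, Cilp, Sod3 and Fxyd6. Fxyd6 had 1.48, 1.29 and 1.48 FPKM in MLX shRNA libraries and 13.5, 14.04 and 12.4 FPKM in MLX-DN libraries, against 10.8 FPKM with NT shRNA and 1.81 FPKM with GFP.

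**Figure D3:**
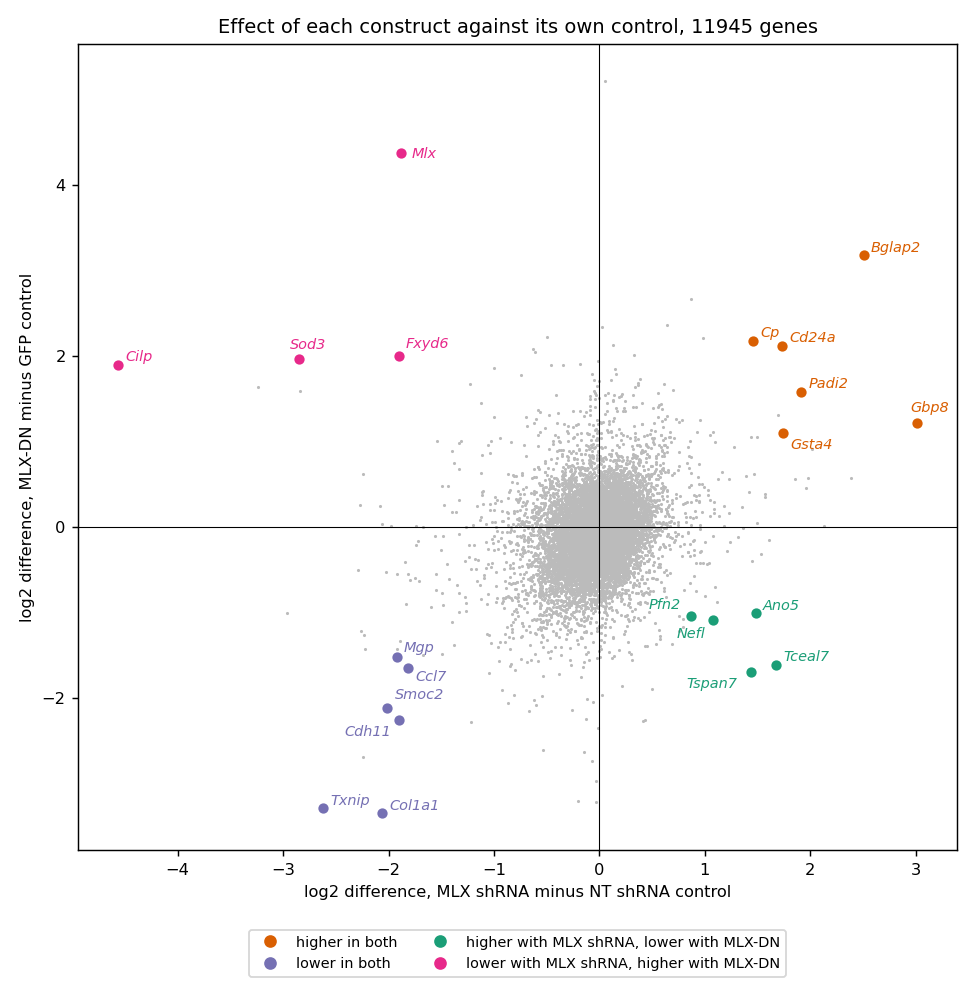
Log2 effect of MLX shRNA against the NT shRNA control (horizontal) and of MLX-DN against the GFP control (vertical) for 11945 genes, 1 point per gene, with the genes of the largest shared and largest opposite effects coloured. Txnip and Col1a1 lie low on both axes, and Mlx and Cilp lie left and high.

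Collagen and other matrix genes were mostly lower in MLX shRNA. Of 11 tested fibrillar and fibril-associated collagens, 3 were higher and 7 lower in MLX shRNA than in MLX-DN, with a median of -0.60. Col3a1, the chain of type III collagen, had 286, 294 and 293 FPKM in MLX shRNA libraries, 637, 628 and 618 FPKM in MLX-DN libraries and means of 985 FPKM (NT shRNA) and 950.4 FPKM (GFP). Both perturbed groups were below both controls and MLX shRNA was lowest. Col12a1, which coats fibrils, had 20.9, 19.3 and 18.8 FPKM in MLX shRNA libraries and 63.1, 62.4 and 62.6 FPKM in MLX-DN libraries, and only MLX shRNA lay off its own control (-1.74, against 0.02 for MLX-DN, adjusted p = 0.59 by limma), a difference of effects of -1.76. Col5a2 and Col1a2 differed by -0.72 and -0.75.

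The 3 chains of type VI collagen, which links muscle cells to their basement membrane, were all lower in MLX shRNA. Col6a1 had 43.9, 46.04 and 44.2 FPKM in MLX shRNA libraries and 125, 125 and 118 FPKM in MLX-DN libraries, Col6a2 15.8, 16.7 and 15.3 FPKM against 55.2, 56.1 and 52.03 FPKM, and Col6a3 17.97, 17.8 and 16.9 FPKM against 53.6, 52.3 and 51.1 FPKM. The log2 differences were -1.41, -1.65 and -1.47. Col6a1 and Col6a2 were at 175 and 85.5 FPKM in the NT shRNA control and at 179.8 and 77.98 FPKM in the GFP control, above both perturbed groups. Col6a3 was at 35.6 FPKM in the NT shRNA control and 136 FPKM in the GFP control, with MLX-DN between them. Among the 17 tested basement membrane genes 5 were higher and 10 lower (median -0.18), where 44.1% and 27.1% of all tested genes were. In the difference of the 2 effects 8 were higher and 7 lower (median -0.06), so the direct lean was not kept. Against own controls 12 were lower with both constructs (23.1% of all tested genes), with Nid1 (nidogen) at -1.08 for MLX shRNA and -0.47 for MLX-DN. Of 42 other matrix proteins and enzymes, 12 were higher and 28 lower in MLX shRNA (median -0.42). Against own controls 5 rose and 33 fell with MLX shRNA, while 15 rose and 21 fell with MLX-DN, a split that turned to 18 and 16 with median centring. Bgn (biglycan, a small proteoglycan) had 144, 142 and 147 FPKM in MLX shRNA libraries and 452, 453 and 441 FPKM in MLX-DN libraries, and Fbn1 (fibrillin) 42.2, 42.3 and 40.6 FPKM against 112, 111 and 110.2 FPKM. Timp3, an inhibitor of matrix proteases, had 33.5, 33.2 and 33.2 FPKM in MLX shRNA libraries and 83.2, 82.4 and 84.5 FPKM in MLX-DN libraries, with 42.9 and 21.03 FPKM in the NT shRNA and GFP controls.

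Smooth muscle and fibroblast marker genes were, like the matrix genes, mostly lower in MLX shRNA than in MLX-DN. Of 9 tested fibroblast markers, 2 were higher and 6 lower in MLX shRNA than in MLX-DN, and their summed level was 74.1 to 77.0 FPKM in MLX shRNA libraries and 99.1 to 102 FPKM in MLX-DN libraries. In the NT shRNA control the sum was 155 to 157 FPKM and in the GFP control 119 to 121 FPKM, and Tcf21 was at 0 throughout. Pdgfrb, a growth factor receptor of mesenchymal cells, had 13.03, 13.1 and 12.7 FPKM in MLX shRNA libraries and 42.1, 42.8 and 41.3 FPKM in MLX-DN libraries, whereas Ly6a and Cd34 were higher in MLX shRNA (0.51 and 0.47 log2). Of 9 tested smooth muscle markers 1 was higher and 5 were lower, with sums of 1975 to 2177 FPKM in MLX shRNA and 2484 to 2543 FPKM in MLX-DN, and 2594 to 2699 and 3436 to 3536 FPKM in the NT shRNA and GFP controls. In the difference of the 2 effects 3 smooth muscle markers were higher and 3 lower (median -0.02), so the direct lean was not kept. The NT shRNA control was above the GFP control in 1 of them and below it in 8. For fibroblast markers the difference of effects had 2 higher and 5 lower (median -0.29). Actg2, an actin with near-identical relatives, differed by -1.44, Cnn1 (calponin) by -1.31, Tagln (transgelin) by -0.66 and Lmod1 (leiomodin) by -0.68. Their part in the matrix differences was not tested. Of 22 tested targets of TGF-beta and SRF, which share several of these genes, 7 were higher and 11 lower (median -0.09).

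Thick filament genes were mostly lower in MLX shRNA than in MLX-DN, although more of them rose than fell with MLX shRNA against its own control. Of 19 tested, 3 were higher and 14 lower (median -0.39), while 12 rose and 5 fell against the NT shRNA control and, with MLX-DN against GFP, 8 rose and 10 fell, equal numbers (9 and 9) with median centring. Against the NT shRNA control, MLX-DN had 18 higher and none lower, where 69.7% of all tested genes were called, 21.0% higher and 48.7% lower. In the difference of the 2 effects 11 were higher and 7 lower, so there too the sign was opposite to that of the direct comparison. Myh8, the perinatal myosin heavy chain, had 39.8, 42.5 and 40.8 FPKM in MLX shRNA libraries and 78.5, 76.6 and 78.96 FPKM in MLX-DN libraries, and means of 22.1 FPKM (NT shRNA) and 82.02 FPKM (GFP). Myh3, the embryonic chain given above, was the other way round, at 0.87, with control means of 492 and 941 FPKM. Myosin heavy chain genes are alike in sequence, and reads may be shared. Mybpc2, the fast myosin-binding protein C, had 6.19, 7.02 and 6.33 FPKM in MLX shRNA libraries and 19.3, 18.4 and 18.9 FPKM in MLX-DN libraries, with both control means at 5.49 (NT shRNA) and 5.30 FPKM (GFP), so MLX-DN lay far above the other 3 groups.

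Of 29 tested thin filament and Z disc genes, 10 were higher and 14 lower in MLX shRNA (median -0.11). Against own controls, 22 rose and 2 fell with MLX shRNA, and 14 rose and 14 fell with MLX-DN. In the difference of the 2 effects 18 were higher and 8 lower (median 0.38), opposite in sign to the direct median. Both perturbed groups were mostly above the NT shRNA control (for MLX-DN 27 higher and 1 lower), which was below the GFP control in 23 of the genes. Tnnt2, the cardiac and embryonic troponin T, had 985, 1071 and 1041 FPKM in MLX shRNA libraries and 1677, 1702 and 1634 FPKM in MLX-DN libraries. Myot (myotilin), Actn2 (alpha-actinin of the Z disc) and Lmod3 (a filament nucleator) were lower in MLX shRNA, at -0.99, -0.57 and -0.44 log2. The levels of Actn2 were 13.5 FPKM in MLX shRNA, 21.03 FPKM in MLX-DN, 13.3 FPKM in the NT shRNA control and 59.6 FPKM in the GFP control. Among 24 tested excitation-contraction genes 12 were higher and 8 lower (median 0.06, equal to that of all tested genes). Trdn (triadin, which anchors the calcium release channel) had 4.24, 4.04 and 4.65 FPKM in MLX shRNA libraries and 12.4, 12.4 and 12.9 FPKM in MLX-DN libraries. Chrnb1, a subunit of the acetylcholine receptor, and Cacng1, a subunit of the muscle calcium channel, were higher in MLX shRNA (0.44 and 0.41).

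Myogenic regulators were evenly split. Among 21 tested myogenic regulators 6 were higher and 6 lower in MLX shRNA than in MLX-DN (median 0.01). Myog (myogenin), which drives differentiation, had 563, 594 and 577 FPKM in MLX shRNA libraries and 712, 718 and 689 FPKM in MLX-DN libraries (-0.29 log2), and Zbtb18 and Tead4, transcription factors of differentiating myoblasts, differed by -0.60 and -0.35. Of the ID and Notch genes, which restrain differentiation, 6 of 15 tested were higher and 5 lower. Id3, an inhibitor of helix-loop-helix factors, had 78.99, 87.1 and 85.5 FPKM in MLX shRNA libraries and 51.9, 55.4 and 54.00 FPKM in MLX-DN libraries, with -0.98 log2 for MLX-DN against GFP and -0.19 for MLX shRNA against NT shRNA. Notch3 and its target Heyl were also higher in MLX shRNA (0.59 and 0.45), and Hes6, which promotes differentiation, was lower (-0.45). Of 18 tested fusion and adhesion genes, 7 were higher and 5 lower. Cav3 (caveolin of muscle), Jam2 and Il4ra were lower in MLX shRNA, at -0.63, -0.58 and -0.52, and the laminin receptor gene Itga7 was higher, at 392, 433 and 409 FPKM against 292, 298 and 284 FPKM in MLX-DN libraries.

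**Figure D4:**
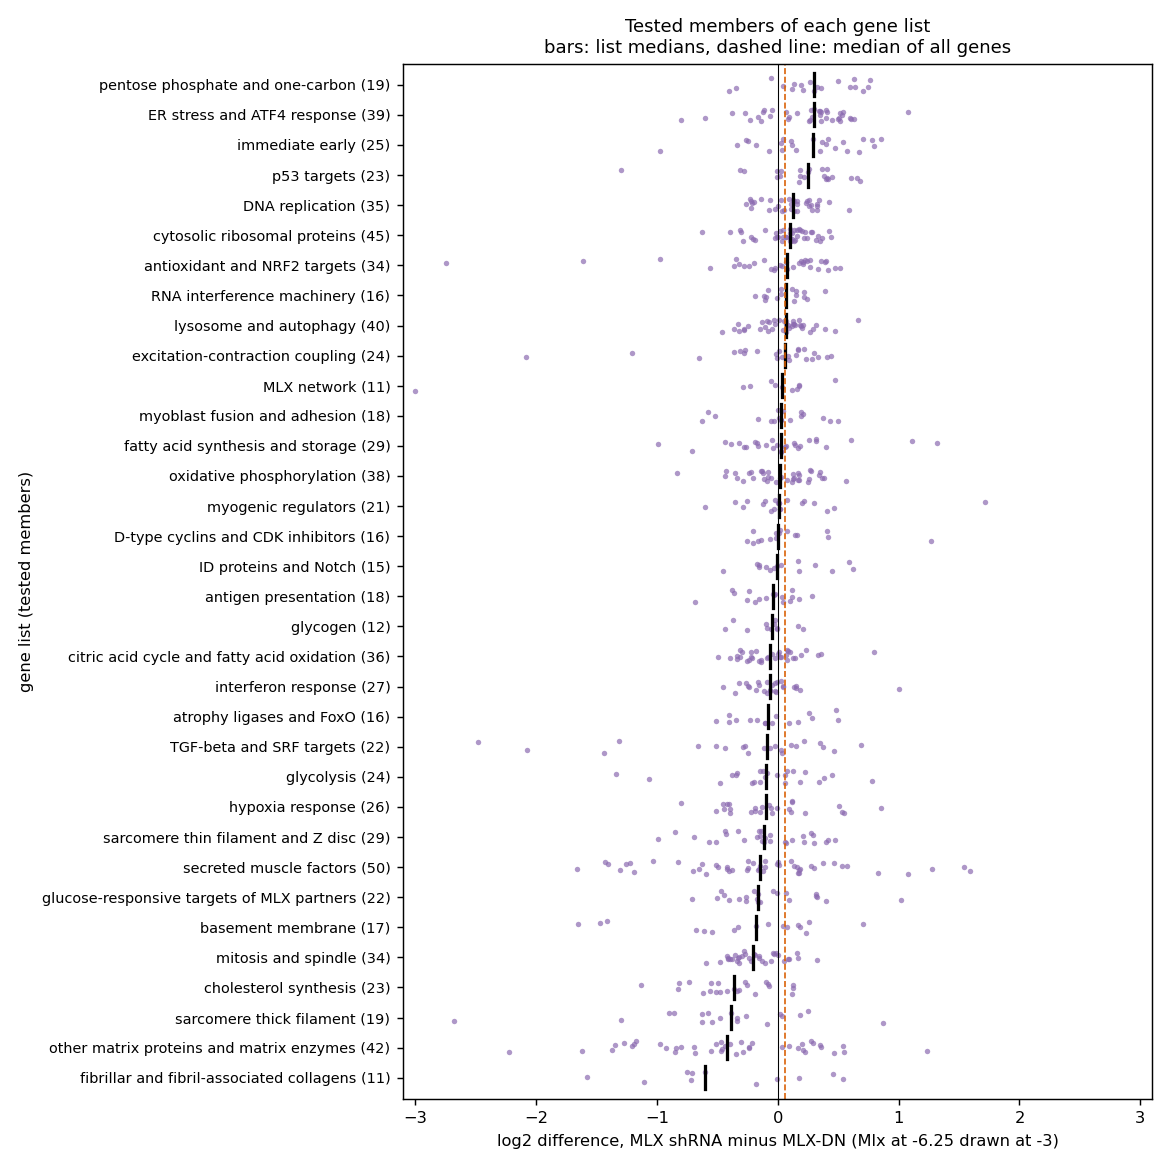
Log2 difference of MLX shRNA minus MLX-DN for the tested members of 34 gene lists, 1 point per gene, with the median of each list as a bar; Mlx is drawn at the left edge. Cholesterol synthesis, thick filament and collagen lists lie to the left of 0, and pentose phosphate and one-carbon and ER stress lists to the right.

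Cholesterol synthesis genes were mostly lower in MLX shRNA. Of 23 tested genes, 3 were higher and 18 lower than in MLX-DN, with a median of -0.36. Idi1, an early enzyme of the isoprenoid steps, had 13.6, 11.7 and 12.7 FPKM in MLX shRNA libraries and 29.03, 29.3 and 32.2 FPKM in MLX-DN libraries, with 14.6 and 13.9 FPKM in the NT shRNA and GFP controls. MLX-DN thus stood above the other 3 groups. Insig1, the sterol sensor, and Nsdhl, a late enzyme, differed by -0.82 and -0.81. Against own controls, 7 rose and 10 fell with MLX shRNA (9 and 7 with median centring), and 13 rose and 7 fell with MLX-DN. In the difference of the 2 effects, in which 42.8% of all tested genes were higher and 32.0% lower, 6 were higher and 13 lower.

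Genes of the pentose phosphate and one-carbon pathways were mostly higher in MLX shRNA. Of 19 tested, 15 were higher and 2 lower (median 0.30), G6pdx among the lower. Psat1, which makes serine, had 157, 154 and 157 FPKM in MLX shRNA libraries and 99.3, 102 and 99.3 FPKM in MLX-DN libraries, and Shmt2, the mitochondrial serine hydroxymethyltransferase, 81.8, 91.3 and 86.8 FPKM against 53.1, 53.2 and 50.4 FPKM. Shmt1, its cytosolic partner, and Mthfd1, of the folate cycle, differed by 0.74 and 0.50. The list for ER stress and ATF4 holds several of these, and of its 39 tested genes 28 were higher and 9 lower (median 0.30). Asns (asparagine synthetase) had 100.2, 103 and 107 FPKM in MLX shRNA libraries and 70.8, 71.6 and 72.03 FPKM in MLX-DN libraries, and 67.7 and 37.7 FPKM in the NT shRNA and GFP controls. Nupr1, a stress-induced chromatin protein, was the other way round, at 43.6, 48.9 and 45.1 FPKM against 84.8, 78.3 and 80.99 FPKM in MLX-DN libraries. Against their own controls 26 of the 39 rose with MLX shRNA and 26 with MLX-DN, 19 of them with both (30.8%, 32.6% and 13.7% of all tested genes). The NT shRNA control was itself above the GFP control in 34 of them and below it in 4, and MLX-DN against NT shRNA had 9 higher and 25 lower. In the difference of the 2 effects 7 were higher and 24 lower (median -0.25), opposite in sign to the direct comparison.

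In fatty acid metabolism single genes stood out and the list of 29 did not lean, with 12 higher and 11 lower. Lpl (lipoprotein lipase), which releases fatty acids from lipoproteins, had 8.41, 8.40 and 8.84 FPKM in MLX shRNA libraries and 2.79, 2.89 and 2.99 FPKM in MLX-DN libraries, with 13.98 and 18.7 FPKM in the NT shRNA and GFP controls. It was below its own control with both constructs, more so with MLX-DN (difference of effects 1.48, adjusted p = 3.03e-14 by limma). The fatty acid carriers Fabp3 and Fabp5 went opposite ways. Fabp3, of heart and muscle, had 45.4, 47.6 and 46.4 FPKM in MLX shRNA libraries and 94.2, 96.9 and 92.5 FPKM in MLX-DN libraries, and Fabp5, of skin and fat, 11.8, 15.9 and 12.9 FPKM against 4.36, 3.83 and 4.37 FPKM.

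Of 24 tested glycolysis genes, 9 were higher and 13 lower in MLX shRNA (median -0.10). Pgam2, the muscle phosphoglycerate mutase, had 17.4, 15.6 and 17.2 FPKM in MLX shRNA libraries and 44.8, 47.7 and 43.4 FPKM in MLX-DN libraries, and the lactate exporter Slc16a3 4.58, 4.82 and 4.39 FPKM against 11.8, 12.6 and 11.03 FPKM. Pfkm and Tpi1, both glycolytic enzymes, differed by -0.38 and -0.33. Of the 12 tested glycogen genes 2 were higher and 5 lower, with Pygm (muscle phosphorylase) at -0.37, Ugp2 at -0.44 and Gys1 (glycogen synthase) at 0.21. The citric acid cycle and fatty acid oxidation genes (11 higher and 18 lower of 36) and those of oxidative phosphorylation (17 and 15 of 38) had medians of -0.06 and 0.02. Cox7a1, the muscle form of a cytochrome oxidase subunit, had 18.2, 16.9 and 16.9 FPKM in MLX shRNA libraries and 33.99, 29.4 and 34.03 FPKM in MLX-DN libraries, and Ndufs1, of complex I, differed by -0.44. Ppard, a nuclear receptor of fatty acid use, and Mdh2 were higher in MLX shRNA (0.79 and 0.36), and Sdhc was lower (-0.33). Among 26 hypoxia response genes, 9 were higher and 14 lower (median -0.10). Against own controls 6 rose and 15 fell with MLX shRNA (9 and 10 with median centring), while 20 rose and 4 fell with MLX-DN. The NT shRNA control was above the GFP control in 20 and below it in 3, and MLX-DN against NT shRNA had 8 higher and 10 lower. Plod2, a collagen lysyl hydroxylase, was lower in MLX shRNA (-0.80), and Ndrg1 and Ak4 were higher (0.86 and 0.51).

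Cell cycle genes were lowered by both constructs. All 34 tested mitosis and spindle genes fell against their own control with both, with medians of -0.55 for MLX shRNA and -0.78 for MLX-DN. Likewise, 33 of 35 DNA replication genes fell with both, with medians of -0.51 and -0.86. Among all tested genes, 23.1% fell with both. Directly, the lists parted. Mitosis genes were lower in MLX shRNA (5 higher, 23 lower, median -0.21), and replication genes were higher in MLX shRNA (20 higher, 8 lower, median 0.13). Cenpe, a kinetochore motor, had 4.82, 4.65 and 4.89 FPKM in MLX shRNA libraries and 7.54, 7.36 and 7.53 FPKM in MLX-DN libraries, against 9.24 and 12.3 FPKM in the NT shRNA and GFP controls. Nusap1, Kif20a and Bub1b, of the spindle and its checkpoint, were lower in MLX shRNA, at -0.59, -0.34 and -0.32 log2. Mcm2, of the replicative helicase, had 10.98, 10.4 and 11.1 FPKM in MLX shRNA libraries and 8.48, 8.30 and 7.93 FPKM in MLX-DN libraries, against 16.1 and 23.5 FPKM. Both groups lay below both controls, MLX-DN lowest. In the difference of the 2 effects, 20 mitosis genes were higher and 6 lower, and 25 replication genes were higher and 4 lower, so for mitosis the 2 comparisons differed in sign. In the NT shRNA control against the GFP control, 0 mitosis genes were higher and 33 lower (37.0% and 37.1% of all tested genes). E2f2 did not follow its list (0.01 and 0.74).

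**Figure D5:**
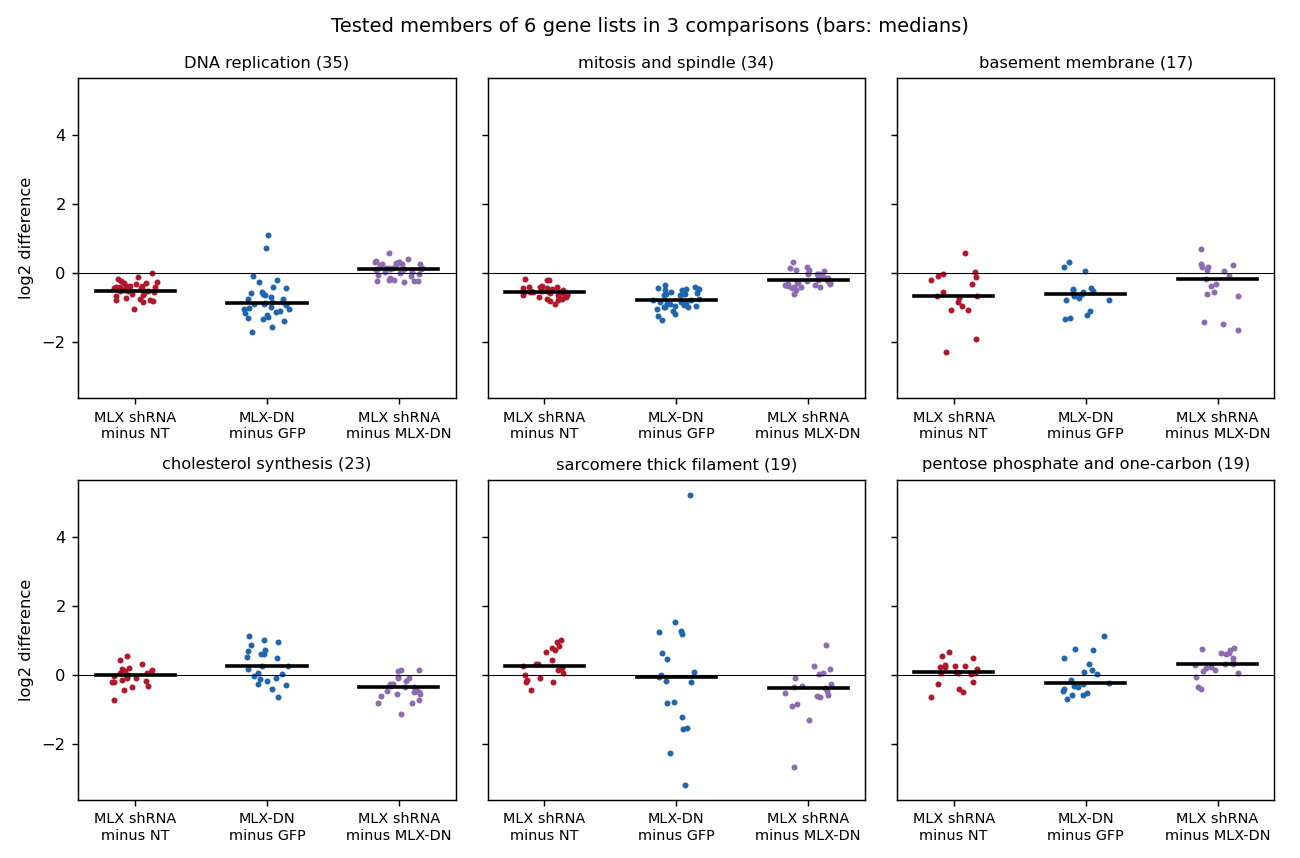
Log2 differences of the tested members of 6 gene lists in MLX shRNA against NT shRNA control, MLX-DN against GFP control and MLX shRNA against MLX-DN, 1 point per gene, with the median as a bar. The DNA replication and mitosis lists lie below 0 in both own-control comparisons and on opposite sides of 0 in the direct one.

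Of 16 tested D-type cyclins, their partners and inhibitors, 5 were higher and 5 lower in MLX shRNA, where 44.1% and 27.1% of all tested genes were. Ccnd1, the D-type cyclin of the G1 phase, had 23.5, 23.99 and 23.6 FPKM in MLX shRNA libraries and 8.91, 8.87 and 8.29 FPKM in MLX-DN libraries, with 9.13 and 10.9 FPKM in the NT shRNA and GFP controls. MLX shRNA stood above the other 3 groups. Cdk4 and Cdk2, cyclin-dependent kinases, were at 0.42 and -0.21. Of 23 tested p53 targets 16 were higher and 3 lower (median 0.25). Against own controls 13 rose and 7 fell with MLX shRNA, and 6 rose and 13 fell with MLX-DN (9 and 10 with median centring). Cdkn1a (p21, a brake on the cycle) had 751, 791 and 765 FPKM in MLX shRNA libraries and 579, 587 and 567 FPKM in MLX-DN libraries. Zmat3 and the death receptor gene Tnfrsf10b were at 0.66 and 0.60. Ccng1, a p53-induced cyclin, was the other way round, at 23.4, 20.4 and 22.8 FPKM in MLX shRNA libraries against 56.5, 56.4 and 59.3 FPKM in MLX-DN libraries. Of 25 tested immediate early genes 16 were higher and 6 lower (median 0.29), with Dusp6 (an ERK phosphatase) at 0.79, Fosl1 at 0.86 and Ier3 at 0.78, while Egr2 was lower, at 2.56, 2.43 and 2.61 FPKM against 6.74, 7.14 and 6.85 FPKM in MLX-DN libraries. Most of the exon bases of Fosl1 (57.2%) lie opposite Ccdc85b.

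Hairpins pass through the cell's small RNA machinery and can set off an interferon response, so both lists were read. Beside them, 44.1% of all tested genes were higher and 27.1% lower in MLX shRNA than in MLX-DN. Of 27 tested interferon genes, 5 were higher and 10 lower in MLX shRNA than in MLX-DN (median -0.07), and against own controls 3 rose and 16 fell with MLX shRNA and 3 rose and 19 fell with MLX-DN. In the difference of the 2 effects 13 were higher and 3 lower, opposite in sign to the direct comparison, and 18 were lower in NT shRNA than in GFP. Gbp6, a guanylate-binding protein gene with close copies, was higher in MLX shRNA (12.6, 11.2 and 12.03 FPKM, against 5.01, 4.84 and 4.93 FPKM in MLX-DN libraries), and Ddx58 (RIG-I, a sensor of viral RNA) was lower (0.863, 0.883 and 0.909 FPKM, against 1.61, 1.61 and 1.60 FPKM). Lgals3bp and Irgm1 were lower as well (-0.35 and -0.24). Of 18 antigen presentation genes 5 were higher and 8 lower, with B2m, H2-T23 and Tap2 at -0.38, -0.68 and -0.36. All 16 RNA interference genes were tested, 8 higher and 2 lower (5 with median centring), with Tarbp2, a partner of Dicer, at 33.7, 35.2 and 33.7 FPKM in MLX shRNA libraries and 25.3, 26.7 and 24.9 FPKM in MLX-DN libraries, and Drosha, Ago1 and Tnrc6c at 0.22, 0.22 and 0.24.

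Among 50 tested secreted muscle factors 18 were higher and 29 lower in MLX shRNA (median -0.15). Fst (follistatin, which blocks myostatin) had 14.8, 13.9 and 14.7 FPKM in MLX shRNA libraries and 41.7, 40.97 and 42.3 FPKM in MLX-DN libraries, against 25.1 and 40.03 FPKM in the NT shRNA and GFP controls. Csf1, the macrophage growth factor, had 14.5, 15.6 and 14.3 FPKM in MLX shRNA libraries and 40.3, 38.6 and 39.5 FPKM in MLX-DN libraries. Igf2, an autocrine growth factor of myoblasts, had 32.2, 32.7 and 31.5 FPKM in MLX shRNA libraries and 70.1, 65.7 and 67.3 FPKM in MLX-DN libraries, with 125 and 173 FPKM in the controls. Igf2 was below both controls in both groups, and lowest with MLX shRNA.

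The remaining lists had members on both sides. Of all tested genes, 44.1% were higher and 27.1% lower in MLX shRNA than in MLX-DN, near the shares of the lysosome and autophagy list. Of 34 tested antioxidant genes, 18 were higher and 11 lower. Gpx3, a secreted glutathione peroxidase, had 13.4, 13.7 and 13.4 FPKM in MLX shRNA libraries and 44.8, 46.6 and 44.2 FPKM in MLX-DN libraries, and like Sod3 was lower in MLX shRNA. Gstm2 was at -0.56 and Prdx2 (a peroxiredoxin) at 0.48. Of 40 lysosome and autophagy genes 18 were higher and 12 lower, with Ctsd (cathepsin D) and Gusb higher (0.47 and 0.67) and the proton pump subunit Atp6v1a lower (-0.46), and of 16 atrophy and FoxO genes 5 were higher and 8 lower, with Foxo1 at -0.40. Of 45 cytosolic ribosomal protein genes, many with pseudogene copies, 25 were higher and 9 lower in MLX shRNA (median 0.10). Against own controls 27 rose and 8 fell with MLX shRNA, and 1 rose and 35 fell with MLX-DN, 20 of them in opposite directions. For MLX-DN 5 rose and 30 fell with median centring, while quantile normalization gave 14 and 23 for MLX-DN and 20 and 10 for MLX shRNA. The NT shRNA control was below the GFP control in 42 of the 45, and MLX-DN against NT shRNA had 18 higher and 10 lower. Rpl11 was at 0.34, and Rpl4, Rpl7 and Rpl24 were at -0.63, -0.31 and -0.29. For these last 3, the sign with MLX-DN against GFP turned under median centring.

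Markers of other cell types were low or mixed. All 10 endothelial markers were below 1 FPKM in all 12 libraries, as were 9 of the 10 chondrocyte markers, Sox9 excepted (0.49), and 7 of the 10 adipocyte markers. Osteoblast markers summed to 629 to 654 FPKM in MLX shRNA and 1069 to 1113 FPKM in MLX-DN libraries, and to 1019 to 1053 and 1159 to 1187 FPKM in the NT shRNA and GFP controls, most of it Spp1 (osteopontin), which had 557, 562 and 577 FPKM in MLX shRNA libraries and 998, 1015 and 1042 FPKM in MLX-DN libraries. Of the 6 tested, 2 were higher in MLX shRNA and 3 lower, with Dmp1, a bone matrix protein, at -0.91, the osteoblast factor gene Runx2 at 0.18 and Bglap2 as above. Of 10 neural markers 3 were tested, Nefl and Tubb3 higher in MLX shRNA and Map2 lower (-0.09, a call lost without MLX shRNA replicate 2 or 3 and without MLX-DN replicate 2 or 3). Tubb3, a neuronal tubulin, had 20.3, 23.1 and 20.98 FPKM in MLX shRNA libraries against 12.9, 13.3 and 12.3 FPKM in MLX-DN libraries.

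The constructs also differ in their vectors. The 2 controls, NT shRNA and GFP, differed from each other in 8854 genes (74.1%), 4421 higher and 4433 lower with NT shRNA and 300 of them at least 2-fold (2.51%), so in the direct comparison the action on MLX and the kind of construct cannot be told apart. When each group was first set against its own control, 8937 genes differed between the 2 effects, 5112 higher and 3825 lower with MLX shRNA, and 533 (4.46%) by at least 2-fold. The genes of lowest p in that test include Cilp, Sod3, Myl2 and Mfap5, which were lower with MLX shRNA, and Tspan7, Hpgd, Myh4, Actc1 and Ly6e, which were higher. Hpgd, which breaks down prostaglandins, was listed at 0.0616, 0 and 0.0222 FPKM in MLX shRNA libraries and 0.0530, 0.0778 and 0.0369 FPKM in MLX-DN libraries, and averaged 0.0766 FPKM in the NT shRNA control and 14.1 FPKM in the GFP control, so its difference of effects (2.93) rests on the GFP control alone. Ly6e, a membrane-anchored antigen, had 94.6, 99.4 and 97.4 FPKM in MLX shRNA libraries and 36.3, 37.1 and 35.6 FPKM in MLX-DN libraries, and its direct difference (1.37) and difference of effects (1.98) had the same sign.

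One stretch of chromosome 8 moved as a block against the GFP control. The 152 tested genes from Arhgap10 to Rrad had a median log2 difference of 0.90 for MLX-DN against GFP and of 1.02 for NT shRNA against GFP, beside -0.08 and -0.01 for the other genes. MLX shRNA against GFP had a median of 0.92, beside -0.02. Directly between MLX shRNA and MLX-DN the median was 0.12, beside 0.06. In the difference of the 2 effects it was -0.94, beside 0.07, with 10 of these genes called higher and 131 lower. Cdh11, Calr and Prdx2 lie there, and without these 152 genes the direct comparison called 8386 genes. Without them MLX-DN against GFP called 9577 genes (3756 higher and 5821 lower) and the difference of effects 8795.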

How the data were processed

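Poly(A) messenger RNA of C2C12 cells was read in 15 libraries, 3 in each of 5 groups, of which 12 are used here and the MLX-WT libraries enter only the shared estimate of the spread. The authors deposited log2 FPKM values for 23352 genes, with a lowest value of 1 in every library, and these were read as log2(FPKM + 2). Per the submitters' processing notes, the tools were CASAVA, STAR and TopHat2 and the build mm9, with neither versions nor roles, and per the labels' protocols the kit was stranded TruSeq. The table holds no counts. The smallest steps in FPKM gave 36.9 to 82.4 M reads per library, with 66.6% to 70.4% of low values within 0.05 of a whole read. The best other depth within 5% gave 53.7% to 64.7%, so the depths are approximate. Read as 1 plus log2(FPKM + 1), the values would give depths larger by a factor of 2. A floor of 3 reads covers counting error only.

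Genes were tested with limma (version 3.58.1, under R 4.3.3), with the deposited log2 values as they stand, 1 mean per group over 15 libraries, with a variance trend, two-sided, Benjamini-Hochberg adjusted over 11945 genes per comparison, at a threshold of 0.05. Lists are given as counts and medians. List counts are to be read beside the shares of all tested genes, 44.1% higher and 27.1% lower in MLX shRNA than in MLX-DN. Against own controls the shares were 30.8% and 39.3% for MLX shRNA and 32.6% and 48.8% for MLX-DN. Members, lists and tests were chosen with earlier results of these data known. Genes named are the 12 largest rises and falls between MLX shRNA and MLX-DN with separate groups and a mean of at least 2 FPKM, without predicted genes; the MLX network and glucose targets; up to 4 members of lowest p per list; the largest shared and opposite effects; and, for the difference of effects, 5 genes each way by p. The genes near 0 in one group only were chosen after their values were seen, as were the marker genes named as absent. A few genes that meet these rules are not reported here. Of 211 named genes, 210 had exons in the GENCODE annotation, and 11 shared at least 10% of exon bases with an expressed gene: Nefl, Mlx, Txnip, G6pdx, Pdha1, Atp5j, Atp5o, Cdk4, Kif20a, Fosl1 and Tceal7. Promoters are RefSeq, GRCm38.p6, for genes matched by symbol. The results were recomputed with other offsets, filters, scalings, variance models, library sets and controls, a 2-fold limit, the replicate number as a block, and each library left out in turn. Removal of the chromosome 8 genes was added after seeing the data.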

Additional observations from a re-analysis of the deposited data

Results flagged for a closer look

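The effects of the 2 constructs differed in 8937 genes, by limma's test of (MLX shRNA minus NT shRNA control) minus (MLX-DN minus GFP control). Among the genes of lowest p in that test, those lower with MLX shRNA included Cilp (-6.46 on the log2 scale), Myl2 (-5.16), Sod3 (-4.81) and Mfap5 (-4.43). Those that were higher were Tspan7 (3.13), Hpgd (2.93), Myh4 (2.68), Ly6e (1.98) and Actc1 (1.84). Myh4, the fast myosin heavy chain, averaged 20.4 FPKM with MLX shRNA, 31.4 FPKM with MLX-DN, 14.8 FPKM with NT shRNA and 158 FPKM with GFP. Actc1, the cardiac actin, averaged 639.7, 553, 467 and 1449 FPKM in the same order of groups. Hpgd, Myh4, Actc1 and Tspan7 were highest in the GFP control, which enters this difference through MLX-DN.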

How the results depend on the processing

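With a 2-fold limit the counts were 166 between MLX shRNA and MLX-DN, 180 for MLX shRNA and 462 for MLX-DN against their own controls, 300 between the controls and 533 for the difference of effects. Shared and opposite calls then numbered 33 and 17. The 2-fold limit was applied under the main setting only. Without it, the total number of calls in each comparison stayed within 1.5 times its main value under every other alternative run. This does not hold for the splits by direction. With each group against the other control, opposite calls split into 1530 and 632, against 1322 and 1253 in the main setting. Leaving out 1 library gave 8026 to 8432 calls directly, 7917 to 8176 and 9449 to 9534 against own controls, 8397 to 8528 between the controls, 8671 to 8973 for the difference of effects, 4135 to 4482 shared and 2377 to 2699 opposite. Replicate numbers did not pair the libraries, as same-numbered MLX shRNA and MLX-DN libraries had deviations correlated at -0.09 to 0.18. With the replicate block, 8530 genes were called directly, 8394 and 9754 against own controls and 8941 in the difference of effects.

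Of the named genes' values, 9868 stayed called or stayed uncalled, 89 lost the call, 42 gained it and 15 turned. A change of sign was counted as a turn only where the main or the alternative value was called. Changes of sign between uncalled values are among the 9868. For MLX-DN against GFP with median centring, Myh8 turned to 0.0198, Rrm2 to 0.00922, Atp6ap1 to 0.0142, Rpl4 to 0.0159, Rpl7 to 0.0332, Rpl24 to 0.00942 and Sox9 to 0.0104. With quantile normalization, Cdkn1a turned to 0.0820, Zmat3 to 0.124, Rpl4 to 0.233, Rpl7 to 0.210, Rpl24 to 0.0402, Spp1 to 0.0987 and Sox9 to 0.0316, and Calr to -0.0643 for MLX shRNA against NT shRNA. The cause was not tested. Between MLX shRNA and MLX-DN, Mxi1, Acaca, Adipor2, Map2 and Bglap2 lost their call under at least 1 alternative, and Mxd4 and Cd68 gained one.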
